A study of Mus musculus with 8 samples.

Results

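Transcript levels of 10 cadherins and protocadherins were followed through forelimb mesenchyme of the mouse embryo. The members were taken by symbol: the cadherins *Cdh2*, *Cdh4*, *Cdh11* and *Cdh13* and the protocadherins *Pcdh8*, *Pcdh15*, *Pcdh17*, *Pcdh18*, *Pcdh19* and *Pcdh20*. They are 10 of 28001 features in the gene list shared by the libraries, and all 10 were detected in each of the 8 libraries. The members were taken by name and not by a threshold on a measured value, and they were chosen with earlier results of these data known.

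Cadherins are calcium-dependent adhesion proteins whose extracellular repeats bind matching molecules on neighbouring cells, and catenins tie the tails of the classical members to the actin cytoskeleton. Type I cadherins include N-cadherin (*Cdh2*) and R-cadherin (*Cdh4*), type II cadherins include cadherin-11 (*Cdh11*), which is known from mesenchyme and bone, and T-cadherin (*Cdh13*) lacks a cytoplasmic tail and is held to the membrane by a lipid anchor. The δ-protocadherins *Pcdh8*, *Pcdh17*, *Pcdh18*, *Pcdh19* and *Pcdh20* are weaker adhesion molecules best known from the nervous system and the somite, and *Pcdh15* encodes a component of the tip link of inner ear hair cells. In the limb bud, N-cadherin is known for its presence in condensing mesenchyme.

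Single-cell RNA-seq (10x Genomics, 3′ ends) was available for 8 libraries of C57BL/6J embryos. Sorted libraries came from embryos homozygous for *Hic1* CreERT2, a Cre under control of the mesenchymal progenitor gene *Hic1*, and for a Cre-dependent tdTomato reporter in Rosa26, after a 7.5 mg dose of tamoxifen to the dam at E10. There was 1 tdTomato+ library each at E11.5, E12.5, E13.5 and E14.5 and from the proximal and the distal forelimb at E16.5, made from pooled forelimbs of litters and depleted of cells with blood and endothelial surface markers. The proximal segment held the distal stylopod, the elbow and the proximal zeugopod, and the distal segment held the distal zeugopod and the autopod. Another 2 libraries (whole 1 and whole 2) held lineage-negative cells of E11.5 whole limbs, from embryos with the same 2 alleles and the same tamoxifen dose, without selection for tdTomato. No library of embryos without the *Hic1* CreERT2 allele was used here. The study's methods give the version 2 kit for samples of E11.5 to E13.5 and version 3 for E14.5 and E16.5, so the step from E13.5 to E14.5 and the change of kit cannot be told apart.

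After removal of barcodes under 3000 UMIs (unique molecular identifiers) or over 10% mitochondrial UMIs, 53085 of 57469 barcodes remained, from 3165 cells at E11.5 to 11109 in the E16.5 proximal library. Libraries held 31500092 to 234893903 UMIs over these cells, and the median per cell ran from 6788 at E13.5 to 18473 in the E16.5 proximal library. The largest share of barcodes that a pair of libraries had in common was 1.04% of the smaller one. tdTomato UMIs ran from 427 to 1341 CPM (UMIs of a gene per 1000000 UMIs of the library) in the 6 sorted libraries and were 3.88 and 4.21 CPM in the whole limb libraries. *Hic1* was likewise 22.0 to 38.0 CPM in sorted libraries against 0.702 and 0.741 CPM in the whole limb, which held little of either transcript. The label of the whole limb libraries names both tdTomato+ and tdTomato- cells, and the study describes tdTomato+ cells as rare in forelimb mesenchyme at E11.5. Cells of clusters named for, or led by genes of, blood, endothelium, epithelium, myogenic cells or nerve made up 8.43% of the E16.5 proximal library, 6.52% and 6.09% of the whole limb libraries and at most 0.835% of the others. These are shares of cells and not of UMIs. Without these cells every member but *Cdh13* was higher in the E16.5 proximal library, for example *Cdh11* at 182.5 CPM in place of 157. A cluster led by the muscle fibre genes *Acta1*, *Tnnc2* and *Actc1* held 23.5% of proximal and 2.01% of distal cells at E16.5, raised 9 of 12 muscle fibre markers, was left unnamed and was kept among mesenchymal cells. The 12 markers summed to 92.1 CPM in the proximal library, 32.0 in the distal one and 23.03 at E14.5, with none of them at 0.

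Promoter sequence was at hand for 6 of the 10 members, all protocadherins. Below are the 250 bases upstream of the RefSeq start (GRCm38.p6, written 5′ to 3′ on the strand of the gene) for *Pcdh8* and *Pcdh15*, which were highest in the same clusters at E14.5 and in the E16.5 distal library, and for *Pcdh18*, the member with the smallest fold between its highest and its lowest library. Capitals mark the TATA box (TATAAA), the CCAAT box (CCAAT, which reads ATTGG when it lies on the other strand) and, likewise on either strand, the GC box (GGGCGG).
Pcdh8 (chr14:79771313-79771562, minus strand): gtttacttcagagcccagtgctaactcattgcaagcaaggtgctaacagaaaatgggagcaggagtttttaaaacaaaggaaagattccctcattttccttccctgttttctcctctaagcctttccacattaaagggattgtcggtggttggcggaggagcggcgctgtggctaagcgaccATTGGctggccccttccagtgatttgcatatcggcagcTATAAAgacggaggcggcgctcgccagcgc
Pcdh15 (chr10:73821617-73821866, plus strand): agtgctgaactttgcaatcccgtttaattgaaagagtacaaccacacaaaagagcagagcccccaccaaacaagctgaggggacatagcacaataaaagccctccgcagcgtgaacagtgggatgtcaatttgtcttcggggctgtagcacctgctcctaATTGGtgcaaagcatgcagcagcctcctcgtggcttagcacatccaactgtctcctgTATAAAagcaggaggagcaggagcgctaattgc
Pcdh18 (chr3:49757317-49757566, minus strand): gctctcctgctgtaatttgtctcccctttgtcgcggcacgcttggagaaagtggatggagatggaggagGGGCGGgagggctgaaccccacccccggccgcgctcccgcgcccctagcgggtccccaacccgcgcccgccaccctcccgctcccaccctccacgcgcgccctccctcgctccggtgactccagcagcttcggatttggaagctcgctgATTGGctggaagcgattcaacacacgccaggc
TATAAA, on either strand, was in the windows of *Pcdh8* and *Pcdh15* and in no other member's window, and 12.4% of 32851 RefSeq promoters of this length hold it. GGGCGG was in those of *Pcdh17*, *Pcdh18* and *Pcdh19* (32.7% of promoters), and CCAAT in all 6 (33.8%). The E-box CACGTG, held by 6.02% of promoters, was in none of the 6, nor was the other E-box searched, CAGCTG, which 13.001% hold. The RefSeq start of *Pcdh15* lies inside the span of the gene in the GENCODE annotation of GRCm38 (chr10:73099342-74649737), so sequence upstream of its other starts is not shown. In the same annotation *Pcdh8* spans chr14:79766775-79771312 on the minus strand and *Pcdh18* chr3:49743296-49757325 on the minus strand, while *Cdh4* (chr2:179442431-179899373, plus strand) and *Cdh11* (chr8:102632095-102785642, minus strand) have no promoter sequence here. None of the members overlapped another counted gene on its own strand.

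Levels are given in CPM from UMIs summed over filtered cells, and intervals are exact 95% Poisson intervals that cover counting error only. Each sorted group is 1 library, so the only measure of spread between libraries of a group is the whole limb pair. Between whole 1 and whole 2, the 10 members differed by 1.01-fold (*Cdh4*) to 1.26-fold (*Pcdh8*). Since a summed level mixes cell types, fewer cells of a type and less RNA per cell cannot be told apart in it. The plot of levels by library shows all members together.

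**Figure D1:**
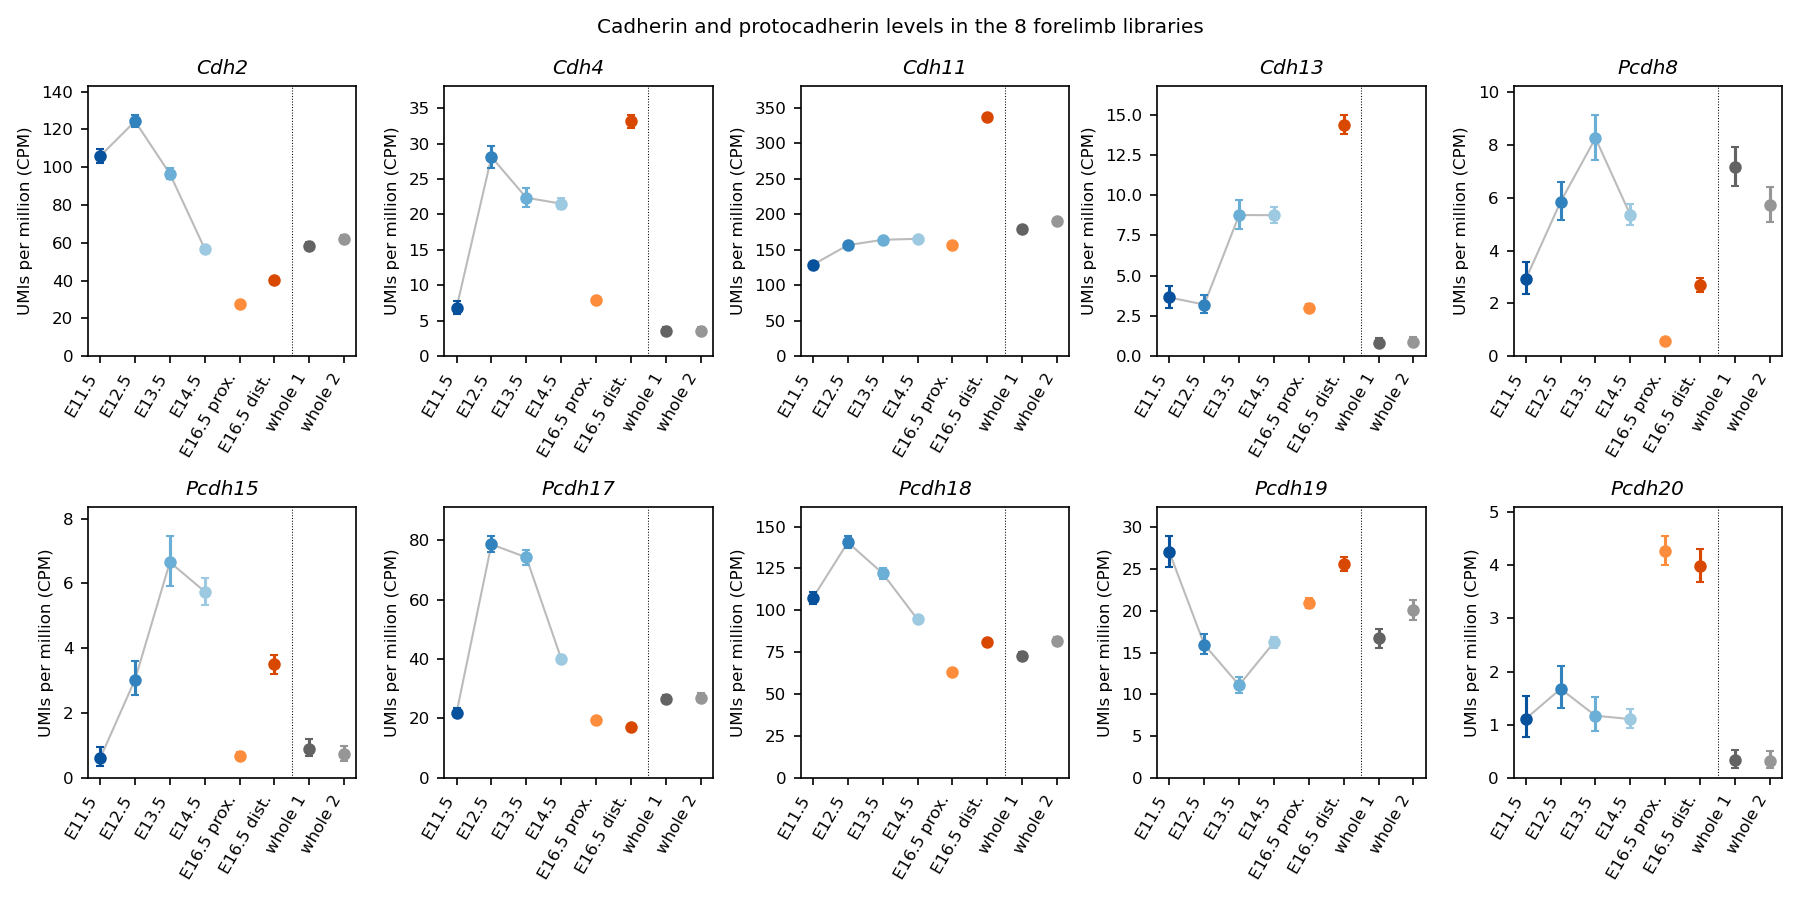
Level of each member in the 8 libraries, 1 panel per member, in CPM on a linear axis from 0. Points are libraries, bars exact 95% Poisson intervals, the grey line joins the sorted libraries from E11.5 to E14.5 and a dotted line sets off the whole limb. *Cdh4*, *Cdh13*, *Pcdh8*, *Pcdh15* and *Pcdh20* spread over 9.34-fold to 17.2-fold between libraries, whereas *Cdh11*, *Pcdh18* and *Pcdh19* stayed within 2.61-fold.

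The classical cadherin *Cdh2*, N-cadherin, was highest at early sorted stages. Its level was 106 CPM in E11.5 cells, 124 in E12.5 cells, 96.5 in E13.5 cells, 56.8 in E14.5 cells, 27.9 in the E16.5 proximal library, 40.1 in the distal library, and 58.4 and 62.0 in whole 1 and whole 2. All 3 sorted libraries up to E13.5 lay above both whole limb libraries, and both E16.5 libraries lay below every other one. Whole 2, whole 1 and E14.5 were neighbours in this order whose intervals overlapped. When each cell was thinned to 3000 UMIs, the share of cells with a *Cdh2* UMI went from 29.6% at E12.5 (59.6% unthinned) to 7.62% in the E16.5 proximal library (32.8% unthinned). A cluster of the same proximal library led by the keratin genes Krt1 and Lor, cells that should lack N-cadherin, gave 0.805% on the thinned scale, with a median depth of 45823 UMIs.

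*Cdh2* was widespread among E12.5 cells, where its level over 7 clusters ran from 90.3 to 148 CPM. At E14.5 the range over 8 clusters was 19.2 to 138 CPM. The top value belonged to a small fibrogenic progenitor-like cluster led by *Nefm*, *Gria2* and *Hhex*, with 275 cells, and the next cluster stood at 65.8 CPM. In both E16.5 libraries the highest levels were in the tenocyte-like clusters, which carry the tendon genes *Scx* and *Tnmd*. These gave 119.5 and 109 CPM in the distal library and 74.1 and 69.0 CPM in the proximal one. Dermal fibroblast-like cells led by *Rspo1*, by contrast, were at 6.69 CPM in the distal and 4.99 CPM in the proximal library. In the whole limb libraries a chondrocyte-like cluster led by *Fxyd3*, *Sema3d* and *Matn4* was highest, at 114 and 107 CPM.

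*Cdh4*, R-cadherin, was low at E11.5 and concentrated in a few clusters later. It measured 6.86 CPM in E11.5 cells, 28.1 in E12.5 cells, 22.4 in E13.5 cells, 21.5 in E14.5 cells, 7.98 in the E16.5 proximal library, 33.1 in the distal library, and 3.55 and 3.57 in the whole limb libraries. The E16.5 distal and E12.5 libraries were highest and the whole limb pair lowest. Neighbours with overlapping intervals were E13.5 and E14.5, E16.5 proximal and E11.5, and whole 2 and whole 1.

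By cluster, *Cdh4* in E12.5 cells was led by 2 early mesenchymal progenitor-like clusters at 51.0 and 42.3 CPM. At E14.5 a cluster led by *Hoxa13*, *Ephb1* and *Islr2* reached 84.8 CPM, and its 13.2% of cells held 39.7% of the UMIs of *Cdh4* in that library. In the E16.5 distal library a cluster led by *Grp*, *Crym* and *Bmp5* reached 144.5 CPM (8.64% of cells, 32.9% of the UMIs). The highest proximal cluster, led by *Sfrp4* and *Prss12*, was at 17.2 CPM. The proximal cluster led by Krt1 and Lor was at 0.822 CPM, from 23 UMIs in 621 cells. The other keratin cluster, led by *Krt14* and *Krt5*, was at 4.68 CPM, from 37 UMIs in 316 cells.

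*Cdh11*, the mesenchymal type II cadherin, was abundant in all libraries. Values were 129 CPM in E11.5 cells, 156 in E12.5 cells, 164 in E13.5 cells, 165 in E14.5 cells, 157 in the E16.5 proximal library, 337 in the distal library, and 179 and 190.0 in the whole limb libraries. Only the distal library stood apart from the rest, and the other 7 lay within 1.5-fold of each other. After thinning, 54.6% of distal cells and 30.4% to 40.4% of cells of the other libraries carried a UMI. The proximal cluster led by Krt1 and Lor gave 2.58%.

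Dermal fibroblast-like and perichondrial-like clusters were among the highest for *Cdh11*. At E14.5 the dermal fibroblast-like cluster was highest at 272 CPM, followed by a limb bud mesenchyme-like cluster led by *Msx1* and *Hoxd13* at 228 CPM and a perichondrial-like cluster at 222 CPM. In the E16.5 distal library a dermal fibroblast-like cluster led by *Sox2* and *Foxd1*, genes of the dermal papilla, reached 774 CPM, and a perichondrial-like cluster was at 623 CPM. The *Sox2* cluster was also highest among proximal cells, at 603 CPM, with 60 cells there and 513 in the distal library. In the whole limb libraries, limb bud mesenchyme-like cells led by *Tfap2b* and *Hoxd13* were highest, at 260 and 276 CPM, while myogenic-like cells were at 62.0 and 67.5 CPM.

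*Cdh13*, T-cadherin, was scarce until E12.5. Its levels were 3.65 CPM in E11.5 cells, 3.21 in E12.5 cells, 8.77 in E13.5 cells, 8.76 in E14.5 cells, 3.02 in the E16.5 proximal library, 14.4 in the distal library, and 0.838 and 0.897 in the whole limb libraries, where 43 and 46 UMIs were counted. The distal library was highest, the whole limb pair lowest, and E13.5 and E14.5 had overlapping intervals. At E14.5 it was highest in the *Nefm* and *Gria2* cluster at 47.3 CPM, the cluster that also led for *Cdh2*. In the E16.5 distal library a fibroblast-like cluster led by *Cldn3* and *Pi16* led at 41.4 CPM. Among proximal cells a group of 63 led by *Fhod3* and *Btc* stood at 43.6 CPM.

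The plot of levels by cluster sets the 10 members side by side.

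**Figure D2:**
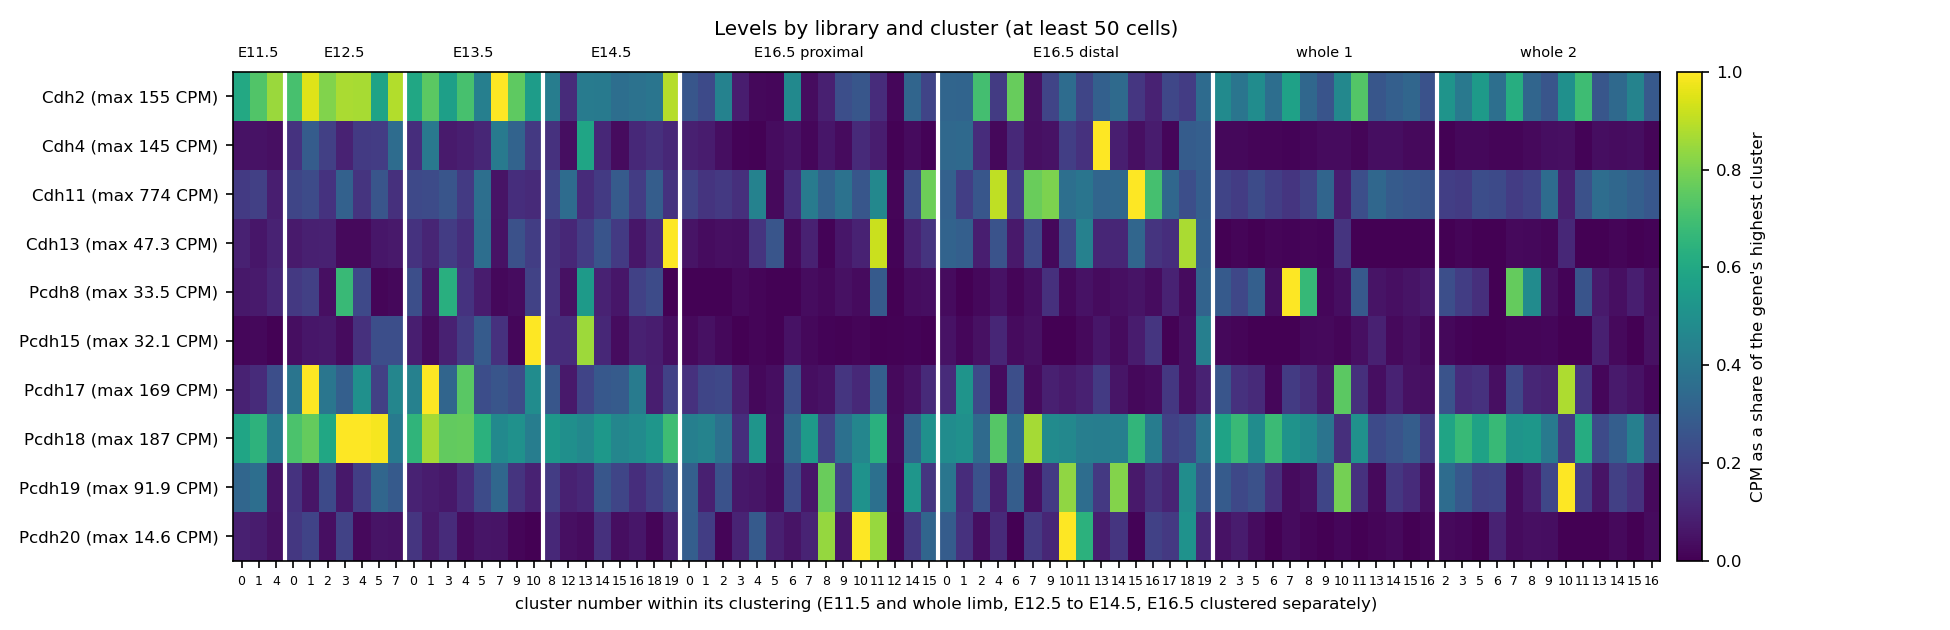
Level of each member in clusters of at least 50 cells of each library, as a heat map with members in rows and clusters in columns, grouped by library. Colour is the CPM of a cluster as a share, from 0 to 1, of the highest cluster of that gene, whose CPM is printed beside its name (774 for *Cdh11*, 14.6 for *Pcdh20*). At E14.5 the row of *Pcdh18* is even (85.5 to 128 CPM) and that of *Pcdh15* is not (1.10 to 27.4 CPM).

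Among the δ-protocadherins, *Pcdh8*, which takes part in somite segmentation as paraxial protocadherin, was low and patchy. It measured 2.92 CPM in E11.5 cells, 5.86 in E12.5 cells, 8.26 in E13.5 cells, 5.35 in E14.5 cells, 0.562 in the E16.5 proximal library, 2.70 in the distal library, and 7.17 and 5.71 in the whole limb libraries. The proximal library was lowest, with 132 UMIs. Along the order E13.5, whole 1, E12.5, whole 2 and E14.5, each neighbour pair had overlapping intervals. In the whole limb it was concentrated in a pair of clusters led by *Tbx2* and *Tbx3*: the first stood at 33.5 CPM in whole 1 and 25.6 in whole 2, and the second at 22.4 and 16.1 CPM. Perichondrial-like cells led by *Wwp2* and *Sox6* were highest at E12.5 (22.7 CPM) and E13.5 (21.1 CPM), where they held 36.7% and 53.3% of its UMIs.

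*Pcdh15* was concentrated in a single cluster of each library from E13.5 to E14.5 and in the E16.5 distal library. The values were 0.603 CPM in E11.5 cells, 3.03 in E12.5 cells, 6.65 in E13.5 cells, 5.75 in E14.5 cells, 0.673 in the E16.5 proximal library, 3.50 in the distal library, and 0.896 and 0.721 in the whole limb libraries. E13.5 and E14.5 were high with overlapping intervals, and the whole limb pair, E16.5 proximal and E11.5 formed the low end, also with overlapping neighbours. The E11.5 value rests on 19 UMIs. At E13.5 a cluster led by *Stmn2* and *Aldh1a3* reached 32.1 CPM and held 50.3% of the UMIs in 12.4% of cells. At E14.5 the *Hoxa13* and *Ephb1* cluster, which also led for *Cdh4*, was at 27.4 CPM and held 48.1%. A distal E16.5 cluster led by *Calb2* and *Mgat4c* was at 13.8 CPM and held 58.0%.

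The same 2 clusters were highest for *Pcdh8* at those ages. The E14.5 *Hoxa13* cluster was at 18.2 CPM of *Pcdh8* with 34.3% of its UMIs, and the distal *Calb2* cluster was at 10.6 CPM with 57.7%. After thinning, 1 cell at E14.5 and 0 distal cells held a UMI of both genes, against 2.00 and 0.653 from independent detection. These counts are too low to tell whether the 2 genes share cells. Over 83 sums of clusters of all libraries, the correlation of their log levels was 0.147. No proximal cluster exceeded 1.52 CPM of *Pcdh15*. For *Pcdh8* the 63 proximal cells led by *Fhod3* and *Btc* were at 9.48 CPM from 10 UMIs, and the next proximal cluster was at 1.55 CPM.

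*Pcdh17* was highest at E12.5 and E13.5. It measured 22.0 CPM in E11.5 cells, 78.7 in E12.5 cells, 74.3 in E13.5 cells, 40.1 in E14.5 cells, 19.4 in the E16.5 proximal library, 17.0 in the distal library, and 26.5 and 27.0 in the whole limb libraries. E12.5 and E13.5 were high with overlapping intervals and stood above all others. In both, the early mesenchymal progenitor-like cluster led by *Tbx3*, *Fgf8* and *Meis2* was highest, at 168 CPM at E12.5 and 169 CPM at E13.5. At E14.5 tenocyte-like cells led at 69.9 CPM. In the whole limb libraries the highest cluster was myogenic-like, marked by *Myog* and *Myod1*, at 126 and 148 CPM, and its 5.78% and 5.16% of cells held 37.4% and 37.9% of the UMIs.

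*Pcdh18* varied least between libraries among the members. Levels were 107 CPM in E11.5 cells, 141 in E12.5 cells, 122 in E13.5 cells, 94.5 in E14.5 cells, 63.2 in the E16.5 proximal library, 80.8 in the distal library, and 72.7 and 81.5 in the whole limb libraries. The highest library was 2.22-fold above the lowest, with E12.5 high and E16.5 proximal low. Across clusters it ran from 76.8 to 187 CPM at E12.5 and from 85.5 to 128 CPM at E14.5. At E16.5 the clusters were further apart, at 36.3 to 162 CPM in the distal library and 5.25 to 118 CPM in the proximal one, where the keratin clusters were lowest. Dermal fibroblast-like cells led by *Rspo1* were highest in the distal library, at 162 CPM. After thinning, 16.6% to 32.9% of cells per library carried a UMI, against 0.966% in the proximal cluster led by Krt1 and Lor.

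*Pcdh19*, an X-linked gene whose human counterpart is mutated in a form of epilepsy, was highest at both ends of the sampled period. It stood at 27.0 CPM in E11.5 cells, 15.97 in E12.5 cells, 11.1 in E13.5 cells, 16.2 in E14.5 cells, 21.0 in the E16.5 proximal library, 25.6 in the distal library, and 16.7 and 20.1 in the whole limb libraries. E11.5 and E16.5 distal were high with overlapping intervals and E13.5 was lowest. Among mesenchymal cells without the *Acta1* and *Tnnc2* cluster, the proximal library stood at 29.5 CPM of *Pcdh19* and was the highest. Its highest clusters at E16.5 were a fibroblast-like cluster led by *Car3* and *Wfdc18* in the proximal library (71.1 CPM), the *Sfrp4* and *Prss12* cluster in the distal library (76.7 CPM), and the pericyte-like cluster, marked by *Rgs5*, at 48.2 CPM proximally and 74.9 CPM distally. In the whole limb the myogenic-like cluster was highest, at 72.6 and 91.9 CPM.

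*Pcdh20* was rare before E16.5. Its level was 1.11 CPM in E11.5 cells, 1.67 in E12.5 cells, 1.17 in E13.5 cells, 1.10 in E14.5 cells, 4.27 in the E16.5 proximal library, 3.98 in the distal library, and 0.331 and 0.312 in the whole limb libraries, where 17 and 16 UMIs were counted. Both E16.5 libraries were high with overlapping intervals, and E12.5, E13.5, E11.5 and E14.5 followed with overlapping neighbours. The *Sfrp4* and *Prss12* cluster, named fibrogenic progenitor-like, was highest in both, at 14.6 CPM proximally and 14.5 CPM distally. It held 41.1% of the UMIs in the proximal library but 6.78% in the distal one, where the larger *Fhod3* and *Btc* cluster (9.37 CPM) held 39.7%.

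The name mesenchyme was checked against cells that are not mesenchymal. The 2 keratin clusters of the E16.5 proximal library were low in *Cdh2* (2.79 and 2.54 CPM), *Cdh11* (20.9 and 11.3 CPM) and *Pcdh18* (7.47 and 5.25 CPM). For these 3 genes the median cluster of that library was at 32.1, 187 and 69.9 CPM. Other members went against the name. *Cdh13* stood at 12.5 CPM in the *Krt14* and *Krt5* cluster, above the 3.02 CPM of the whole library. *Cdh4* was at 4.68 CPM in the same cluster, which is the median value of that library's clusters. The myogenic-like cells of the whole limb, also non-mesenchymal, held 67.4% and 41.3% of the *Cdh13* UMIs, from 29 and 19 UMIs, besides being highest for *Pcdh17* and *Pcdh19*. Of *Pcdh18* they had 25.04 and 32.3 CPM, below every other cluster of whole 1 and whole 2 with at least 50 cells.

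The time course compared each sorted library with the one before. Each stage is 1 library and no test was made, and the count is of members past 2-fold among genes at 5 CPM or more in either library, beside the share of all such genes past 2-fold. Ratios are the later over the earlier library, with exact intervals for counting error.

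From E11.5 to E12.5, 3 of 7 members at that level were higher past 2-fold and none lower, while 2.99% of 10259 genes were higher, 1.33% lower and 4.32% past it either way. *Cdh4* gave a ratio of 4.10 (3.55 to 4.76), *Pcdh17* 3.58 (3.30 to 3.89) and *Pcdh8* 2.01 (1.58 to 2.57). *Pcdh19* went the other way at 0.590 (0.534 to 0.653). *Pcdh15*, below 5 CPM in both libraries, gave 5.02 (3.09 to 8.61). The call of *Pcdh8* was lost among mesenchymal cells alone, without the UMI minimum, and without likely doublets.

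From E12.5 to E13.5, 2 of 9 members were higher past 2-fold, against 2.19% of 10366 genes, and 0 were lower, against 1.89% (4.08% either way). They were *Cdh13* at 2.73 (2.25 to 3.33) and *Pcdh15* at 2.20 (1.79 to 2.71). The study's methods give Dispase for dissociation up to E12.5 and a mix with collagenase and pronase from E13.5. Age and dissociation cannot be told apart in this step. Within the 6 clusters that held at least 50 cells of both libraries, the interval for *Cdh13* lay above 1 in 4 and below 1 in none. For *Pcdh15* it lay above 1 in 2, at 2.37 in the mitotic-like and 3.10 in the perichondrial-like cluster, and held 1 in 4. The 2 clusters with at least 20 *Pcdh15* UMIs in both libraries were among those 4, at 1.18 and 1.26. *Cdh2* was at 0.776 (0.746 to 0.808) overall and had its interval below 1 in 5 of the 6 clusters. From E13.5 to E14.5, where the kit changed, 0 of 9 members passed 2-fold in either direction, and 11.6% of 10522 genes did, 5.10% higher and 6.50% lower. *Pcdh17* was at 0.541 (0.518 to 0.565), *Cdh2* at 0.589 (0.567 to 0.611) and *Pcdh8* at 0.648 (0.571 to 0.736), while *Cdh11* (1.01) and *Cdh13* (0.999) were level.

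From E14.5 to the E16.5 proximal library, 6 of 9 members were lower past 2-fold and none higher. Of 10493 genes, 7.91% were lower, 7.70% higher and 15.6% past it either way, and the median log2 ratio was -1.05 for the 9 members and -0.21 for all genes. *Pcdh8* was at 0.105 (0.0866 to 0.127), *Pcdh15* at 0.117 (0.0980 to 0.139), *Cdh13* at 0.345 (0.313 to 0.379) and *Cdh4* at 0.371 (0.350 to 0.393). *Pcdh17*, at 0.482, and *Cdh2*, at 0.491, lay near the 2-fold line and fell short of it among mesenchymal cells alone, with log2 ratios of -0.87 and -0.82. Without the *Acta1* and *Tnnc2* cluster as well, *Pcdh17* was past the line at -1.16, *Cdh2* was at -0.86, and *Pcdh8*, *Pcdh15*, *Cdh4* and *Cdh13* stayed past it at -2.78, -3.43, -1.35 and -1.34. *Pcdh20*, then at 5.69 CPM in the proximal library, was past it in the other direction at 2.36. The E14.5 library was of whole forelimb and the E16.5 one of a proximal segment, so age and segment cannot be told apart in this step. In the E16.5 distal library *Cdh4* (33.1 CPM) and *Cdh13* (14.4 CPM) were above their E14.5 levels of 21.5 and 8.76 CPM. *Cdh2*, *Pcdh8*, *Pcdh15* and *Pcdh17* were below their E14.5 levels there too. *Pcdh20*, below 5 CPM at E14.5 and in the proximal library, was higher in the proximal library, with a ratio of 3.87 (3.25 to 4.63).

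The segments of the E16.5 forelimb were compared directly. The proximal counts were made with Cell Ranger 3.0.2 and the distal ones with 6.0.1, and segment, library and pipeline version cannot be told apart. Of 7 members at 5 CPM or more, 3 were higher past 2-fold in the distal library and none lower, while 5.66% of 10352 genes were higher, 4.78% lower and 10.4% past it either way. *Cdh13* had a distal over proximal ratio of 4.76 (4.38 to 5.19), *Cdh4* of 4.15 (3.94 to 4.38) and *Cdh11* of 2.15 (2.12 to 2.18). Among mesenchymal cells alone *Cdh11* had a log2 ratio of 0.91 and was no longer past 2-fold. When the *Acta1* and *Tnnc2* cluster was left out as well, an alternative added after the data were seen, *Cdh13* and *Cdh4* stayed past 2-fold, with log2 ratios of 2.07 and 1.96, and *Cdh11* was at 0.77. *Pcdh8* and *Pcdh15*, below 5 CPM in both libraries, gave 4.80 (3.94 to 5.88) and 5.20 (4.35 to 6.24). *Pcdh20* gave 0.932 (0.843 to 1.03) and *Pcdh17* 0.878 (0.837 to 0.921).

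The levels were also compared inside the 11 clusters that held at least 50 cells of both segments. For *Cdh11*, the interval of the ratio lay above 1 in 10 and below 1 in the *Fhod3* and *Btc* cluster (0.828), with a median of 1.41. The ratio of *Cdh4* lay above 1 in 9 and below 1 in none, with a median of 2.76 over the 7 clusters with at least 20 UMIs in both libraries. *Cdh4* in tenocyte-like cells, for example, was at 5.60 CPM proximally and 18.3 CPM distally, and in the *Acta1* and *Tnnc2* cluster at 11.005 and 49.6 CPM. *Cdh13* lay above 1 in 6 clusters, held 1 in 4 and lay below 1 in the *Fhod3* and *Btc* cluster, which had 63 proximal and 1613 distal cells. Over the 8 clusters with at least 20 UMIs in both libraries, its ratio ran from 0.478 to 8.96 with a median of 2.20.

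For *Pcdh15* only a mitotic-like cluster led by histone genes had an interval above 1, from 3 proximal and 26 distal UMIs, and the other 10 intervals held 1. *Pcdh8* had 3 intervals above 1, held 1 in 7 and lay below 1 in the *Fhod3* and *Btc* cluster (0.169, from 10 proximal and 43 distal UMIs). No shared cluster reached 20 UMIs of either gene in both libraries, and the distal *Calb2* cluster that was highest for both is not among the shared ones.

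*Cdh2* had 7 intervals above 1 and none below. *Pcdh17* differed by cluster. Its interval lay below 1 in 5, down to 0.173 in the *Sox2* and *Foxd1* cluster (17 proximal UMIs), held 1 in another 5 and lay above 1 in the *Acta1* and *Tnnc2* cluster, at 2.50. As a measure of what separate libraries give, the whole 2 over whole 1 ratio over 65 members and clusters with at least 20 UMIs in both ran from 0.719 to 1.70 with a median of 1.06, and 63 were within 1.5-fold.

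**Figure D3:**
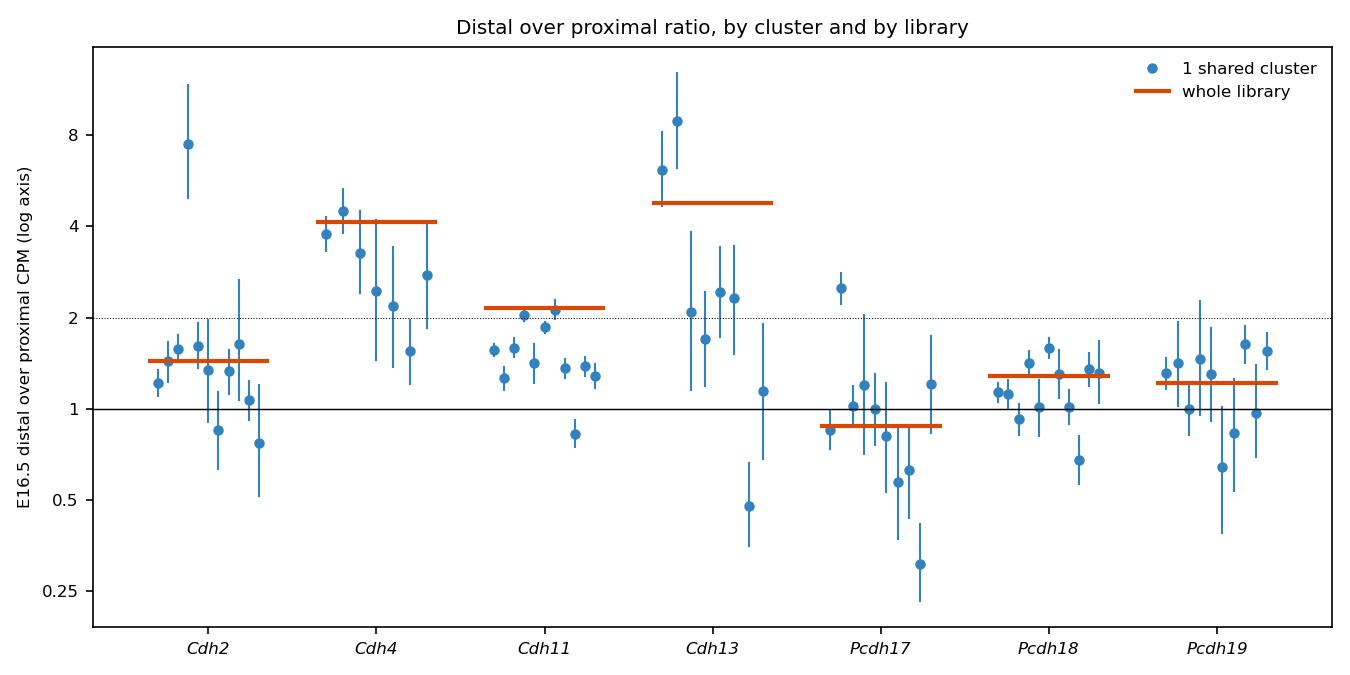
Ratio of the E16.5 distal over the proximal library for 7 members, on a log axis with lines at 1 and 2. Blue points are shared clusters with at least 20 UMIs in both libraries, with exact 95% intervals, and orange lines are whole libraries; the 7 points of *Cdh4* all lie above 1, and those of *Pcdh17* on both sides of 1.

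The E11.5 sorted library was set against the 2 whole limb libraries, which hold cells of the entire limb bud. The study finds tdTomato+ cells of this age mostly in the proximal limb, so limb position and the sort cannot be told apart. Over all filtered cells, 7 limb bud mesenchyme markers summed to 96.4 CPM in the sorted library. In the whole limb libraries they summed to 1217 and 1089 CPM. Counts of mesenchymal cells were summed per library and compared with edgeR's quasi-likelihood test over 15080 genes. The CPM given with it are scaled by library totals, and the log2 differences by TMM, edgeR's scaling between libraries, so they need not match. For *Cdh2* the log2 difference was 0.66 with TMM and 0.84 with library totals only. With 1 sorted library and 1 residual degree of freedom, the p-values rest on a spread between 2 whole limb libraries that is pooled over genes. The sources do not tie these 2 libraries to separate embryos. A library effect of the sorted sample cannot be told apart from the sort. By this test 8 of 10 members passed an adjusted p of 0.05, 6 higher and 2 lower in sorted cells. The background was 53.3% of all genes, 26.8% higher and 26.5% lower, and the median log2 difference was 0.44 for the members and 0.01 for all genes.

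In CPM of mesenchymal cells, *Cdh2* was 106 in the sorted library against 57.6 and 61.0 in the whole limb libraries (log2 difference 0.66 ± 0.094 SE, edgeR adjusted p = 2.78e-11). *Cdh4* was 6.90 against 3.50 and 3.41 (0.82 ± 0.18, edgeR adjusted p = 2.75e-05), and DESeq2 did not call it (0.79, DESeq2 adjusted p = 0.0571). The largest log2 difference among the members was that of *Cdh13*, 3.67 against 0.277 and 0.466 (3.11 ± 0.31, edgeR adjusted p = 2.99e-22), which rested on 13 and 22 whole limb UMIs and was 1.90 when all cells, the myogenic-like ones included, were summed. All 3 were higher in sorted cells. The sorted value lay outside the whole limb pair, as it did for 7958 of the 8034 genes called, so this does not set them apart.

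*Cdh11* was lower in sorted cells, 130 CPM against 191 and 201 (log2 difference -0.78 ± 0.10, edgeR adjusted p = 4.42e-13), and *Pcdh8* was 2.94 against 7.73 and 6.19 (-1.42 ± 0.20, edgeR adjusted p = 5.22e-12). *Pcdh19* was higher, 27.1 CPM against 11.95 and 14.8 (0.84 ± 0.13, edgeR adjusted p = 9.20e-10). *Pcdh20* was higher too, 1.118 against 0.341 and 0.339 (1.53 ± 0.43, edgeR adjusted p = 0.00117), and it was not called by DESeq2 (1.51, DESeq2 adjusted p = 0.202). For these genes too the sorted value lay outside the whole limb pair. It did so for every member, the uncalled *Pcdh15* and *Pcdh17* included, so this does not set them apart.

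*Pcdh18* was 108 CPM against 77.4 and 85.9 (0.22 ± 0.094, edgeR adjusted p = 0.0350) and lost its call in several alternatives. *Pcdh15*, 0.575 CPM against 0.939 and 0.763 (-0.74 ± 0.42), and *Pcdh17*, 21.8 against 17.3 and 17.3 (0.16 ± 0.13), did not pass, with edgeR adjusted p of 0.128 and 0.312. When all cells were summed, the myogenic-like cells of the whole limb included, *Pcdh17* was lower in sorted cells (-0.46, edgeR adjusted p = 0.00123). Cells with at least 3 mitotic markers made up 35.01% of the sorted mesenchymal cells and 53.4% and 52.5% of those of the whole limbs. With cells under 3 mitotic markers only, an alternative added after the data were seen, 6 members passed, beside 6824 of 13796 genes. *Pcdh18* (0.16, edgeR adjusted p = 0.180) and *Pcdh20* (1.20, edgeR adjusted p = 0.0594) did not pass but kept their direction.

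**Figure D4:**
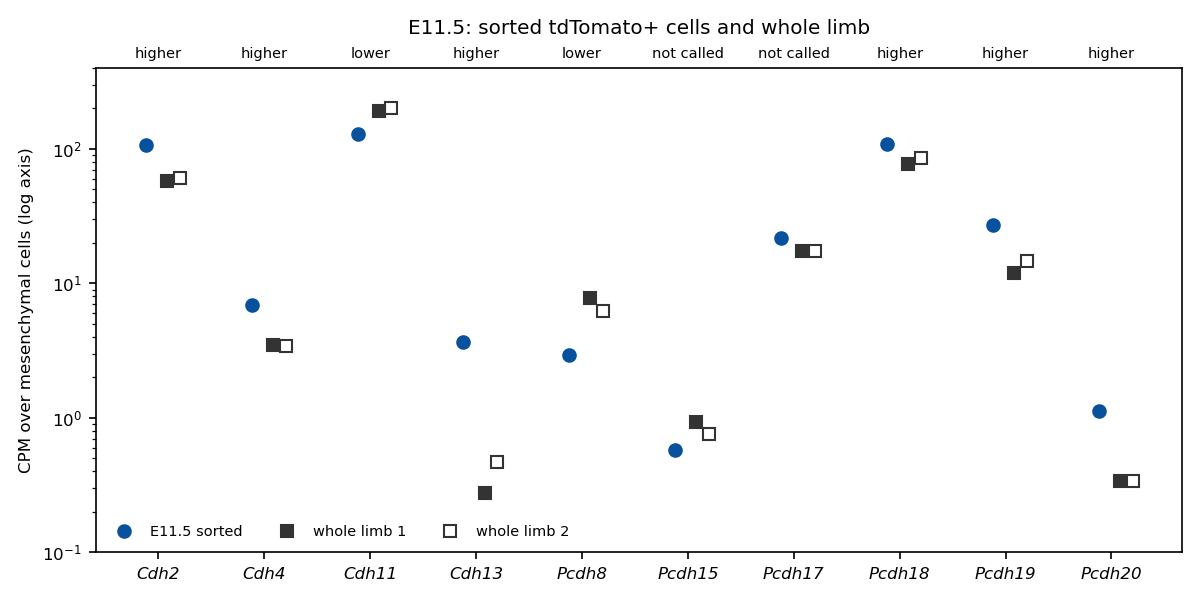
Levels of the members among mesenchymal cells at E11.5, in CPM on a log axis, for the sorted library and both whole limb libraries. The sorted point lies outside the whole limb pair for each of the 10 members, above it for *Cdh2*, *Cdh4*, *Cdh13*, *Pcdh17*, *Pcdh18*, *Pcdh19* and *Pcdh20* and below it for *Cdh11*, *Pcdh8* and *Pcdh15*. Among the genes called, it lay outside the pair for 7958 of 8034. The share over all genes tested is not given, so this position does not set the members apart.

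Sorted and whole limb cells shared no cluster with at least 50 cells of both, so no value within a common cluster can be given. *Cdh11* in the 3 sorted clusters ran from 65.2 to 145 CPM, and in the clusters of whole 1 other than the myogenic-like one from 119 to 260 CPM, so these ranges overlapped. For *Cdh2* the sorted clusters lay at 94.1 to 132 CPM and those of whole 1 at 39.4 to 114 CPM.

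Other cadherins and the proteins that link them to the cytoskeleton or signal through them were read from 7 lists, of which 47 genes were in the files. In the E11.5 test 34 of these were tested, of which 10 were higher and 7 lower in sorted cells, with a median log2 difference of 0.13. All genes tested gave 26.8% higher and 26.5% lower, so these counts do not set the lists apart. Higher were 4 of 8 large cadherins and their partners, genes of planar polarity and growth control. They were the giant cadherins *Fat3* (log2 difference 2.78), *Fat1* (0.40) and *Dchs1* (0.29) and the partner gene *Fjx1* (0.40). Of 2 type I cadherins tested, *Cdh3*, P-cadherin, was lower (-1.37). Type II cadherins went both ways, with *Cdh8* (2.04) and *Cdh12* (2.36) higher and *Cdh6* (-1.90), *Cdh10* (-1.59) and *Cdh22* (-3.41) lower. Among 9 catenins and junction partners, *Jup*, plakoglobin, was higher (0.76), and *Ctnna1*, α-catenin (-0.64), and *Mllt4*, afadin (-0.34), were lower. The protocadherins *Pcdh9* (1.03) and *Pcdh11x* (1.30) were higher and none of the 5 tested was lower. Of 3 nectins, adhesion molecules of the immunoglobulin family, *Pvrl2* was higher (1.115) and *Pvrl3* lower (-0.30), and the 4 other cadherins were not tested for their low counts. Of the remaining listed genes at 50 CPM or more in a library, *Ctnnb1*, β-catenin (log2 difference -0.05), *Cttn* (0.14), *Vcl* (-0.19), *Fat4* (0.16) and *Pcdh10* (0.12) did not pass.

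In the segment comparison *Fat1* (46.5 CPM proximally and 112 CPM distally), *Fat3* (7.93 and 17.5 CPM) and *Cdh3* (5.30 and 12.9 CPM) were higher past 2-fold in the distal library. *Cdh1*, the E-cadherin of epithelia (20.05 and 2.27 CPM), *Jup* (90.7 and 21.7 CPM) and *Pcdh1* (5.12 and 1.36 CPM) were lower past 2-fold, and *Cdh1* and *Pcdh1* are named here after their values were seen. The proximal library held the larger share of epithelial cells, and their part in these 3 values was not tested. From E11.5 to E12.5 *Pcdh10* (26.1 and 53.6 CPM) and *Fjx1* (45.2 and 95.2 CPM) were higher past 2-fold. *Vcl*, the actin linker vinculin, was lower past 2-fold from E12.5 to E13.5 (ratio 0.409), and *Pcdh9* from E13.5 to E14.5 (0.448), where the kit changed. From E14.5 to the E16.5 proximal library *Pcdh10* (0.332), *Fat3* (0.395) and *Cdh3* (0.292) were lower past 2-fold, and *Cdh1* (22.02), *Jup* (6.56) and *Pcdh1* (5.45) were higher. The epithelial markers summed to 169 CPM at E14.5 and 6647 CPM in the proximal library. The part of epithelial cells in these higher values was not tested.

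Genes whose pattern was most like each member were found by the correlation of log levels over 83 sums of clusters with at least 50 cells per library. The search covered 9955 genes for *Pcdh20* and 9954 for each other member. The sums share libraries and depth, so the values are descriptions. *Cdh2* was closest to *Sept6* (r = 0.86), *Mdk* (0.85) and *B4galt6* (0.84). *Pcdh18* was closest to *Pabpc4l* (0.88), to *Pdgfra* (0.85), a growth factor receptor gene of mesenchyme, and to *Dzip1* (0.82). *Cdh11* was closest to *Vcam1*, an adhesion molecule that binds integrins (0.83), *Adgra2* (0.83) and the ephrin receptor gene *Ephb2* (0.80), and *Cdh4* to *Lhfpl1* (0.78), *Uchl1* (0.76) and *Hebp1* (0.76). For *Cdh13* the nearest genes were *Ptgfr*, *Gm26615* and *Ly6h* at 0.76, 0.76 and 0.75, and for *Pcdh20* *Sfrp4* (0.80), *Arsi* (0.75) and *Adgrd1* (0.75). Among the genes near *Pcdh17* were *Meox1* (0.72) and *Fgf8* (0.71). Values were lower for *Pcdh8* (*Unc5c* 0.62, *Scube3* 0.62, *Ssbp2* 0.60), *Pcdh15* (*Rac3* 0.61, *Bloc1s1* 0.60, *Ly86* 0.60) and *Pcdh19* (*Klhl13* 0.66, *Crip2* 0.59, *Cdk14* 0.58). Between members the highest value was 0.64, for *Cdh2* and *Pcdh17*, and the lowest -0.32, for *Cdh11* and *Pcdh17*.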

How the data were processed

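Whole-number UMI counts at filtered barcodes were deposited by the authors, from Cell Ranger (3.0.2 for 5 sorted libraries and 6.0.1 for E16.5 distal per the file headers; no version is given there for the whole limb libraries) on a modified mm10 reference with tdTomato, CreERT2 and SSM2GFP added. Barcodes under 3000 UMIs or over 10% mitochondrial UMIs were left out, and levels were summed per library and cluster. Scrublet's automatic threshold called 0 to 4 cells per library, so likely doublets (the highest scores, 3.41% to 9.37% of cells) were left out only in an alternative. Cells were clustered with scanpy 1.11.5 (2000 variable genes, 50 components, 25 neighbours, Leiden resolution 1) in 3 sets (time course, E16.5, E11.5), leaving out the members, the other listed cadherin and junction genes and the *Hox* genes. Clusters took a name from at least 3 raised markers unless muscle fibre genes or genes of another class led them. Unnamed ones, and some named ones, are described by leading genes. Rebuilt names may differ from those of the study. Named genes were all members, listed genes at 50 CPM or more in a library or past the threshold at E11.5, and the 3 genes most alike to each member (Y-linked, *Xist*, mitochondrial and haemoglobin genes left out); for *Pcdh17* not all of these are reported here.

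The members and lists were chosen with earlier results of these data known. Ratios of single libraries carry exact conditional intervals, and genes count as moved past 2-fold at 5 CPM or more. The E11.5 comparison used edgeR 4.0.16 (TMM, filterByExpr, quasi-likelihood F-test, two-sided) with Benjamini-Hochberg adjustment over all genes tested, with DESeq2 1.42.0 and limma 3.58.1 as alternatives, in R 4.3.3. On simulated E11.5 counts in which 200 of 15080 genes were changed 4-fold, edgeR recovered 185, DESeq2 164 and limma-voom 190, with 11, 0 and 17 false calls. The simulated counts used edgeR's own estimates of spread and gave the sorted library no effect of its own. Far more genes were called in the data, many at smaller differences. These numbers therefore do not measure the error of the E11.5 comparison. Intervals cover counting error only. Reads of a gene on the opposite strand of *Cdh2*, *Pcdh8*, *Pcdh15* and *Pcdh19* can be told apart only as far as the counting used strand.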

Additional observations from a re-analysis of the deposited data

How the results depend on the processing

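Among the counts that answer a comparison, 72 of 82 alternative values were within 1.5-fold of the reported one. DESeq2 called 5 members in place of 8 at E11.5, losing *Cdh4* (DESeq2 adjusted p = 0.0571), *Pcdh18* (0.277) and *Pcdh20* (0.202). It called 4822 of the 20163 genes in its fit, in place of 8034 of 15080. Without a filter on low counts edgeR called 7 members and 4894 of 20163 genes. The adjusted p of *Cdh2*, *Cdh11* and *Cdh13* were then larger by many orders of magnitude, at log2 differences of 0.65, -0.79 and 3.10. The small p-values printed for these members thus depend on the filter. Other settings called 6 to 9 members, and their gene counts ran from 6094 of 13383 to 8075 of 15341. *Pcdh17* reversed to -0.46 when all filtered cells were summed, and *Pcdh15* reached -2.23 and passed with cells thinned to 3000 UMIs. Scaling by library totals alone, added after the data were seen, moved the median of all genes to 0.19. It left 9 members past the threshold, beside 7323 of 15080 genes. With a fold of 1.5 in place of 2, 3 members passed from E13.5 to E14.5 instead of 0. With a minimum of 1 CPM, or none, 5 members passed between E16.5 segments instead of 3. The share of all genes past these altered fold and level limits is not given, so these counts do not set the members apart. The class of cells with the highest level of each member stayed the same for 5 members at Leiden resolution 0.5, 5 at resolution 2, 2 with each library clustered on its own and 2 with a cell's class set by at least 3 markers, so cluster names are the least stable result here. Leaving out 1 whole limb library leaves no residual degree of freedom, so only differences can be given. The log2 difference was 0.61 to 0.72 for *Cdh2*, 0.82 and 0.82 for *Cdh4*, -0.83 to -0.72 for *Cdh11*, 2.78 to 3.55 for *Cdh13*, -1.55 to -1.26 for *Pcdh8*, -0.87 to -0.60 for *Pcdh15*, 0.15 to 0.18 for *Pcdh17*, 0.14 to 0.32 for *Pcdh18*, 0.68 to 1.019 for *Pcdh19* and 1.52 to 1.54 for *Pcdh20*. The lower value of *Cdh13* and of *Pcdh18* was that without whole 1. The causes were not tested. No paired analysis was possible because the sorted group has 1 library and shares fewer than 2 replicate numbers with the whole limb libraries. The alternative that leaves out mitotic-like clusters was not run, as the E11.5 clusters included none. Depth limits *Cdh13* (13 and 22 UMIs in whole limb mesenchymal cells), *Pcdh15* and *Pcdh20* (16 to 46 UMIs in each E11.5 library), and all sorted stages rest on 1 library.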
